A study of Mus musculus with 70 samples.

Results

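Regulatory T cells (Tregs) of the spleen that lacked the IL-33 receptor ST2 on their surface were compared between an effector population, sorted as CD44hi (eTregs), and a central population, sorted as CD44lo CD62L+ (cTregs). The libraries were chosen by these 2 labels alone, which gave 5 CD44hi and 5 CD44lo libraries, 10 of the 70 in the study. Both populations came from the same 5 male mice, aged 16.6, 17.1, 17.4, 18.1 and 18.6 weeks (mouse 1 to mouse 5), on the B6.129(Cg) background with the allele Foxp3tm4(YFP/icre)Ayr. In these mice YFP and Cre are made from the Foxp3 locus, so that YFP marks cells that express Foxp3, and every library of the study carries the allele. The labels name no treatment. CD4 T cells of the spleen were enriched on magnetic beads, 220 live YFP+ CD4+ cells without markers of other lineages were sorted for each library, and their RNA was amplified as full-length cDNA and sequenced. The other groups of the study, ST2+ or ST2- CD44hi Tregs of blood, spleen, lungs, visceral fat, colon and skin and CD44lo CD62L+ Tregs of lungs, entered the fit and are described only where they are set beside the spleen values.

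Tregs carry the transcription factor Foxp3 and restrain other immune cells. After they leave the thymus they recirculate through lymphoid organs as resting cells with low CD44, an adhesion receptor for hyaluronan. Upon stimulation through their antigen receptor and costimulatory receptors they become effector Tregs, which is known to involve gain of factors such as Blimp-1 (Prdm1), BATF and IRF4, loss of factors of the resting state such as KLF2, LEF1 and SATB1, and new receptors for chemokines and for tissue ligands. Follicular regulatory T cells, a CXCR5+ kind of effector Treg, enter the B cell follicles of the spleen.

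Sequencing depth was similar in both groups, with 2195741 to 2656728 counts per library in CD44hi and 1838429 to 2610618 in CD44lo. Levels are given as CPM, counts per 1000000 of a library's counts in tested genes after TMM scaling. Among the sort genes, Cd44 was at 126, 165, 212, 218 and 181 CPM in the CD44hi libraries of mice 1 to 5 and at 50.3, 39.8, 61.9, 68.4 and 81.5 CPM in their CD44lo libraries. This transcript followed the labels without overlap. Il1rl1, which encodes ST2, was at 0 to 3.38 CPM in the 10 libraries, beside 228 to 322 CPM in the 5 spleen ST2+ libraries. Foxp3 was at 119.5 to 165 CPM in CD44hi and 128 to 182 CPM in CD44lo, and Cd4 was at 325 to 499.6 and 243 to 403 CPM. Of markers of other cell types, the B cell gene Ms4a1, 6 of 14 myeloid genes including Csf1r and Adgre1, and the NK cell genes Ncr1 and Klra8 had 0 counts in all 10 libraries.

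The summed level of 10 B cell markers was 883 to 951 CPM in CD44hi and 557 to 678 CPM in CD44lo, of which Ighm, the IgM heavy chain constant region, made up 776 to 836 and 517 to 633 CPM. The 8 CD8 T cell and NK cell markers summed to 118 to 207 and 34.7 to 95.9 CPM, the 10 helper cytokine and CD40 ligand genes to 80.0 to 104 and 33.4 to 70.2 CPM, the 14 myeloid markers to 123 to 151 and 103 to 127 CPM and the 8 red cell and platelet markers to 0.370 to 12.3 and 0 to 15.3 CPM. Members of these lists that were called higher in CD44hi by the rule given next were Cd22, Nkg7, Ifng, Il4 and Il21. Il13, Il17a and Il17f had 0 counts in all 10 libraries. The part of other cell types in the results was not tested. In these libraries of pooled cells a transcript made by fewer cells and a transcript at a lower level per cell cannot be told apart.

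Effector Tregs differed from central Tregs mainly by gain of transcripts. A gene was called when it changed at least 1.5-fold with an adjusted p (Benjamini-Hochberg) no higher than 0.05 in edgeR's quasi-likelihood test. Of 13173 protein-coding genes tested, 655 (4.97%) were called, 571 (4.33%) higher and 84 (0.638%) lower in CD44hi, so that 87.2% of the calls were higher. The higher genes changed by a median of 11.97-fold, or 10.03-fold when genes without any count in CD44lo were set at their lower bound. Their median level was 35.4 CPM in CD44hi and 2.51 CPM in CD44lo, and 243 of them averaged below 1 CPM in CD44lo. The lower genes changed by a median of 2.03-fold between a median of 191 CPM in CD44lo and 94.4 CPM in CD44hi, and 79 of the 84 still averaged at least 10 CPM in CD44hi. By the same cut-off, 217 of the 571 higher genes averaged at least 10 CPM in CD44lo. Gains were thus often from little or no signal but in many genes from a clear level, whereas losses were mostly partial. The plot of fold change against level shows both.

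**Figure D1:**
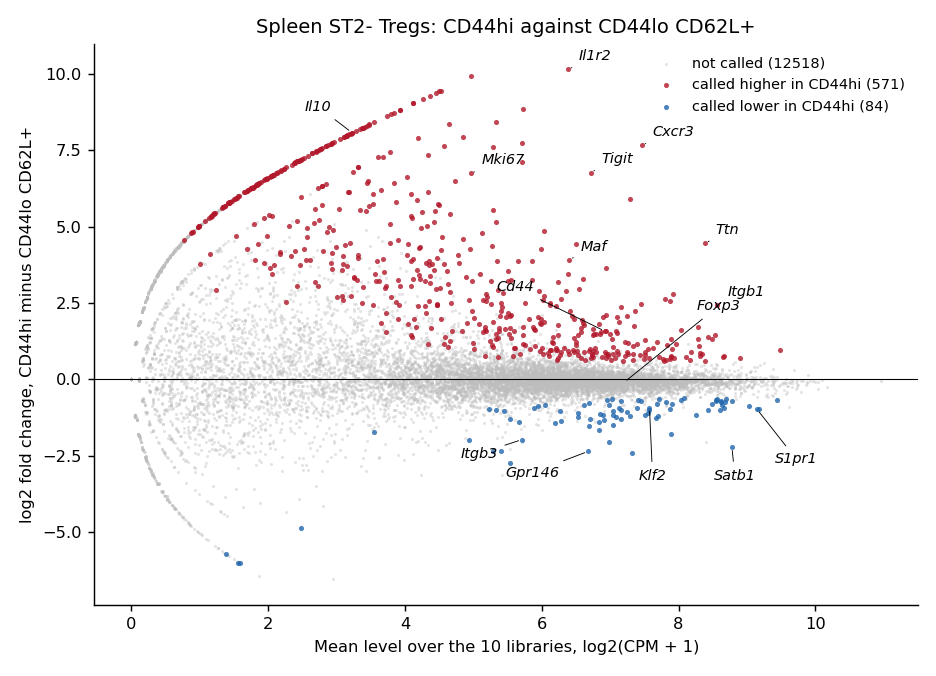
Each point is 1 of the 13173 tested genes, with the mean level over the 10 spleen libraries on the x axis as log2(CPM + 1) and the log2 fold change of CD44hi against CD44lo CD62L+ on the y axis. The genes called higher (571) reach larger fold changes than the genes called lower (84), which lie mostly at high levels, and the arcs at the left edges are genes without counts in 1 of the groups, whose fitted folds are no measure of size.

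For 149 of the higher genes no CD44lo library held a count, and their folds are lower bounds set at 3 counts over the group, 5.82-fold at the least, 27.2-fold in the median and 244-fold at the most (Ces2c, a carboxylesterase). In 435 of the 571 higher genes and 71 of the 84 lower genes the 5 libraries of one group did not overlap the 5 of the other, beside 6.01% and 3.43% of all tested genes. The direction was the same in all 5 mice for 480 higher and 81 lower genes. These genes were called from the same libraries, and the share over all tested genes is not given, so this count is a description only. The number of calls depended on the libraries in the fit. When the fit held only these 10 libraries, 764 genes were higher and 255 lower, and 522 of the 571 higher and 81 of the 84 lower genes stayed called. With limma voom and quality weights 1135 were higher and 393 lower. Leaving out mouse 3 lowered the higher calls to 380.

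Of the 14 genes with the smallest adjusted p among those higher without overlap, 4 encode well known surface receptors, Tigit, Cxcr3, Itgb1 and Icos. Tigit (chr16:43648867-43664146 on GRCm38), an inhibitory receptor, was at 164, 240.4, 214, 212 and 199.8 CPM in CD44hi and at 0, 0.8195, 2.35, 0.534 and 5.22 CPM in CD44lo. Its log2 fold change of 6.78 ± 0.45 (SE) had the smallest adjusted p of all tested genes (5e-18, edgeR). Cxcr3 (chrX:101731535-101734269), a receptor for interferon-induced chemokines, was at 317, 340.5, 361, 346 and 381 CPM against 0.367, 0, 6.66, 0.534 and 0.401 CPM. In both genes every CD44hi library stood far above the highest CD44lo library. Itgb1, the integrin beta 1 chain, was present in both populations and stood at 612, 718, 695, 636 and 509 CPM against 106, 127, 161, 95.1 and 97.9 CPM, 5.39-fold higher. Icos, a costimulatory receptor, was 3.07-fold higher, at 334 to 463 against 89.8 to 158 CPM.

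Other genes among these 14 have varied functions. Dusp14, a dual-specificity phosphatase, was at 39.6, 55.2, 50.7, 27.9 and 42.5 CPM in CD44hi and had 0 counts in all 5 CD44lo libraries, which makes it at least 173-fold higher. Ttn, the giant muscle protein titin, was at 375, 722, 565, 585 and 944 against 13.2, 25.4, 43.5, 39.5 and 24.9 CPM. Eea1, a tether of early endosomes, was 12.6-fold higher, Cyfip1, a part of the WAVE actin complex, 5.48-fold, Odc1, the first enzyme of polyamine synthesis, 3.404-fold and Cldnd1 3.51-fold. Ttc39c stood at 78.7 to 151 CPM in CD44hi and at 0 to 3.21 CPM in CD44lo. Absence of overlap was part of the rule that chose these 14 genes, so it is no separate finding.

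**Figure D2:**
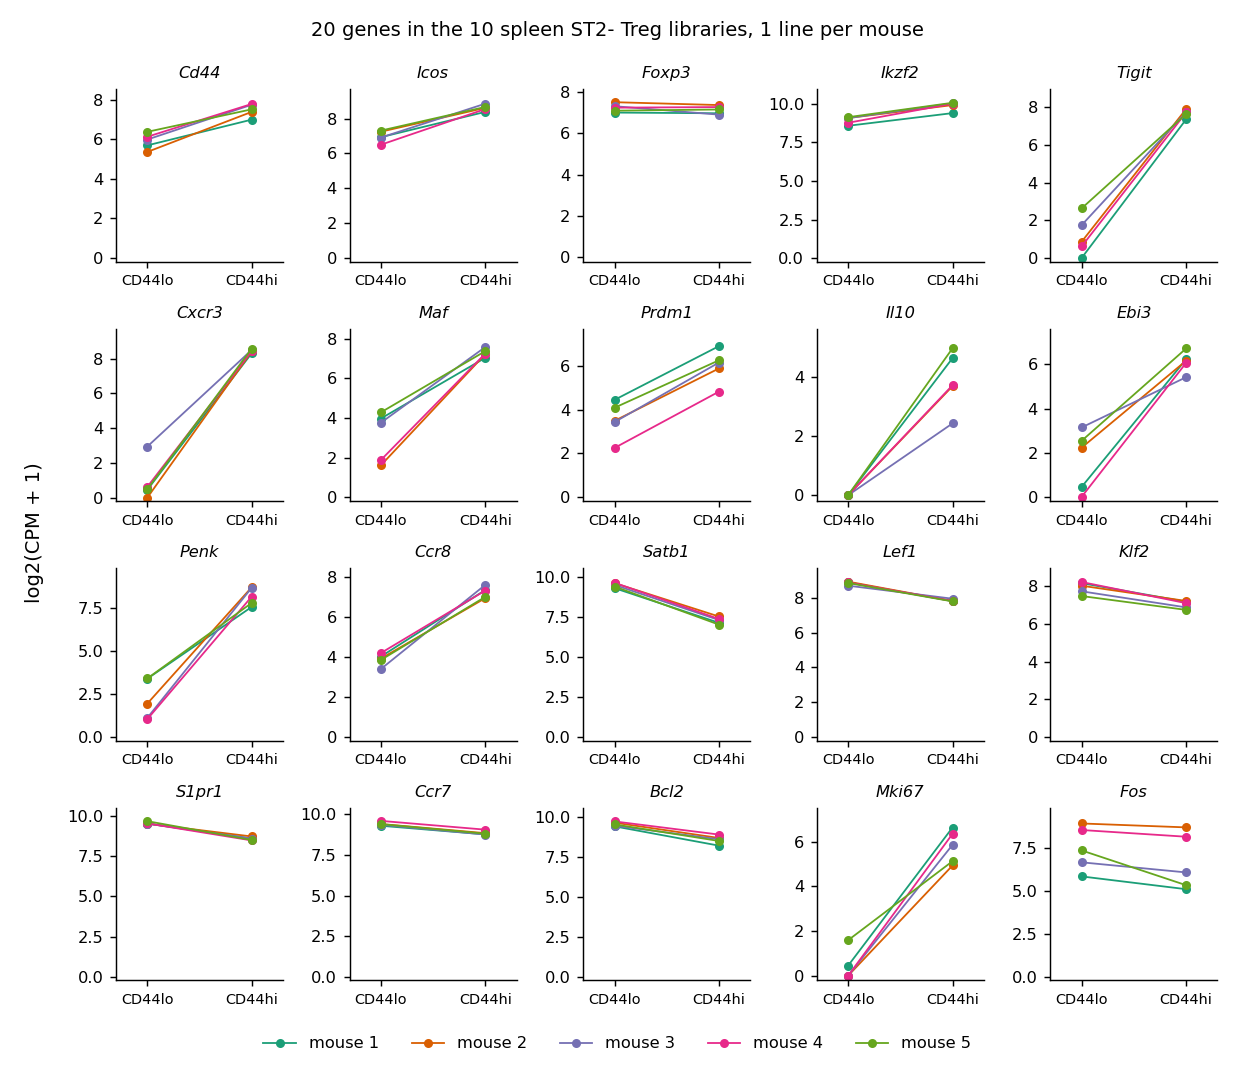
Levels of 20 genes as log2(CPM + 1), with CD44lo on the left and CD44hi on the right of each panel and 1 line for each of the 5 mice. Lines of Tigit, Cxcr3, Il10 and Mki67 start at or near 0 in CD44lo, lines of Satb1, Lef1, Klf2 and S1pr1 fall from a level well above 0, and Foxp3 is flat. Fos differs more between mice than between populations, and its line falls in every mouse.

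Of 28 transcription factors linked to effector Tregs, 15 were called and all were higher, beside 4.33% of all tested genes. The list's median log2 fold change was 1.65, against 0.00 over all tested genes. Prdm1 (Blimp-1, chr10:44437177-44528501) was at 120.3, 58.6, 70.99, 27.5 and 76.3 CPM in CD44hi and at 20.9, 10.2, 9.800, 3.74 and 16.1 CPM in CD44lo, and its library of mouse 4 was the lowest in both groups. Maf (c-MAF) was at 130.3, 148, 190.5, 151 and 165 against 14.7, 2.05, 12.5, 2.67 and 18.5 CPM. Irf4 was at 85.9, 56.9, 126, 40.1 and 100.1 against 9.91, 0.4098, 19.2, 0 and 4.01 CPM. All 3 genes were higher in CD44hi in every mouse. Batf was already at 73.4 to 126 CPM in CD44lo and rose 2.26-fold to 182 to 271 CPM. Bhlhe40, a transcriptional repressor, and Nfil3, a basic leucine zipper factor, were 7.398-fold and 7.403-fold higher, Rora 3.91-fold, Id2, an inhibitor of E proteins, 3.41-fold and Hif1a, the oxygen-sensing factor, 2.21-fold.

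The lineage factors of helper T cells Tbx21 and Gata3 differed in their calls. Tbx21 (T-bet) was called higher, at 22.2, 20.96, 58.6, 55.4 and 15.1 CPM in CD44hi against 5.10 CPM in 1 CD44lo library and 0 in the others. Gata3 was at 89.2 to 145 and 83.1 to 137 CPM, with a log2 fold change of 0.30 ± 0.14 (SE) that was not called (adjusted p = 0.229, edgeR). Among the remaining members called were Ahr, Runx2, Tox, Zbtb32 and Zeb2. Zeb2 was at 0.845 to 6.66 CPM in CD44hi, and its call was lost when any 1 mouse was left out.

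The factors of the resting state went the other way. Of 22 quiescence and stemness factors 6 were called, all lower, where 0.638% of all tested genes were called lower. Of the 22, 10 were lower without overlap, beside 3.43% of all tested genes. The list's median log2 fold change was -0.57. Satb1 (chr17:51736187-51833290), an organiser of chromatin, was at 140.3, 184, 158, 166 and 129.6 CPM in CD44hi and at 630.4, 783, 724, 794 and 675 CPM in CD44lo, 4.63-fold lower. Lef1, a partner of beta-catenin, was at 222, 225, 245, 224 and 220.3 against 472, 484, 412, 468 and 458 CPM. Klf2 was at 145, 149, 117, 137 and 107 against 288, 262, 213, 300.2 and 179 CPM. Each mouse showed all 3 decreases, and the groups did not overlap. Klf7 was 2.59-fold lower, Tsc22d3, the glucocorticoid-induced leucine zipper, 1.93-fold and Foxo1 1.59-fold. Tcf7 was at 402 to 552 and 516 to 652 CPM and was not called. In the fit of the 10 libraries alone 9 members were lower, with Bach2, Klf3 and Ikzf1 added. Bach2 was at 39.98, 67.6, 86.4, 57.9 and 55.8 against 157, 135, 156, 166 and 148 CPM, and its groups did not overlap.

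Genes of lymphoid recirculation were partly lower. S1pr1, the receptor that guides T cells out of lymphoid organs, was at 386, 421, 384, 355 and 361 CPM in CD44hi and at 734, 731, 734, 738 and 814 CPM in CD44lo, a log2 fold change of -0.98 ± 0.19 (SE). Ccr7, the receptor for chemokines of the T cell zone, was at 431, 454, 429, 528 and 444 against 623, 671, 651, 767 and 668 CPM, without overlap, and was called neither in the fit of all groups nor in that of the 10 libraries, where its change stayed under 1.5-fold. Over the 16 genes of this list, 2 were called lower (S1pr1 and Klf2) and 2 higher, Cxcr4 and Itgal, the alpha chain of LFA-1. Of all tested genes 0.638% were called lower and 4.33% higher. Itgal was at 337 to 529 against 211 to 252 CPM. With a 1.5-fold minimum inside the test none of the 4 stayed called, and the call of Cxcr4 was also lost in the fit of the 10 libraries and without mouse 1, 2 or 5.

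The 14 genes with the smallest adjusted p among those lower without overlap also held genes of other functions. Gpr146, an orphan receptor, was at 25.2, 51.8, 27.3, 32.97 and 28.4 CPM in CD44hi and at 145, 179.9, 179.5, 202 and 142 CPM in CD44lo, 5.12-fold lower. Mxd1, an antagonist of MYC, was 2.81-fold lower, Arl4c, a small GTPase, 2.66-fold, Flt3l, the ligand of FLT3, 2.44-fold and Dph5, an enzyme of diphthamide synthesis, 2.42-fold. The forkhead factor Foxn3, Tmem64 and Pitpnc1 were 1.99-fold, 1.98-fold and 2.29-fold lower. Cast, the calpain inhibitor, at 292 to 358 against 475 to 534 CPM, and Cytip, at 444 to 605 against 769 to 912 CPM, had narrow ranges and changed only 1.57-fold and 1.59-fold. Both lost their call with a 1.5-fold minimum inside the test. Chosen after its values were seen, Ly6c1, a surface protein anchored by a lipid, was at 30.9 to 68.5 CPM in CD44hi and at 225 to 329.6 CPM in CD44lo.

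Of 14 genes of Treg identity 3 were called, all higher, beside 4.33% of all tested genes. Ikzf2 (Helios) was at 666, 955, 1036, 1017 and 1058 CPM in CD44hi and at 378, 535, 533, 432 and 555 CPM in CD44lo, 1.95-fold higher. Nrp1 (neuropilin 1) was 2.59-fold higher, at 418 to 589 against 139 to 253 CPM, and Itgb8, which activates TGF-beta, 5.54-fold, at 38.5 to 83.4 against 5.22 to 16.6 CPM. Foxp3 itself had a log2 fold change of -0.10 ± 0.13 (SE), and Il2ra (CD25) was at 363 to 515 and 472 to 516 CPM without a call. Ctla4 was at 362 to 494 and 269.7 to 388 CPM, a log2 fold change of 0.52 ± 0.15 (SE) that passed the adjusted p (0.0247, edgeR) but stayed under 1.5-fold.

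Of 22 suppressive and effector molecules 12 were called, all higher in the fit of all groups, beside 4.33% of all tested genes. The fit of the 10 libraries and voom each called 2 members lower and the fit with mouse as a block 1, among them Ecm1, an extracellular matrix protein, at 211, 172, 186, 169.9 and 189.7 CPM in CD44hi and at 352, 365, 341, 294 and 379 CPM in CD44lo. Il10, the anti-inflammatory cytokine, was at 24.1, 11.98, 4.41, 12.3 and 30.6 CPM in CD44hi and had 0 counts in all CD44lo libraries, at least 70.2-fold higher. Ebi3, a subunit of IL-35 and IL-27, was at 74.4, 71.02, 41.9, 66.3 and 105 against 0.367, 3.69, 7.84, 0 and 4.82 CPM. Il1r2, the decoy receptor for IL-1, was at 168, 99.2, 267, 158 and 131 CPM against 1 count in the CD44lo library of mouse 1 and 0 in the others, a ratio of 1969 with an exact 95% counting interval from 353 to 77800. Il10 and Il1r2 separated the populations almost as presence and absence, whereas Ebi3 reached 7.84 CPM in CD44lo and was 20.6-fold higher in CD44hi. Fgl2, a secreted suppressive factor, was 18.8-fold higher and Penk, the enkephalin precursor, 59.7-fold, at 189 to 418 against 1.07 to 9.63 CPM. Areg (amphiregulin, a repair factor) stayed low, at 8.14 to 28.4 CPM in CD44hi and 0 to 4.04 CPM in CD44lo. Gzmb (granzyme B) was at 0.3702 to 20.3 and 0 to 6.97 CPM and was not called.

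Of 28 costimulatory and inhibitory receptors 12 were called, again all higher, beside 4.33% of all tested genes. Next to Tigit and Icos, Pdcd1 (PD-1) was at 424, 474, 462, 351 and 387 CPM in CD44hi and at 95.03, 34.4, 36.9, 71.6 and 63.4 CPM in CD44lo. Klrg1, a marker of terminally differentiated Tregs, was at 28.5, 29.1, 42.3, 25.4 and 127 against 1.47, 0.8195, 0, 0 and 0 CPM, with the library of mouse 5 above the other 4. Cd83 was at 345 to 507 against 33.1 to 115 CPM, 5.91-fold higher. Among TNF receptors, Tnfrsf9 (4-1BB) was at 360.2 to 479.7 against 147 to 327 CPM, and its call was lost without mouse 3 and without mouse 4.

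Of 18 chemokine receptors 11 were called, all higher, beside 4.33% of all tested genes. The list's median log2 fold change was 2.56. Ccr8, a receptor of skin and tissue Tregs, was at 159.6, 120.2, 191, 156 and 126 CPM in CD44hi and at 15.04, 13.9, 9.41, 17.1 and 13.2 CPM in CD44lo, 10.97-fold higher with no overlap. Ccr4 was at 23.7, 38.5, 25.1, 46.5 and 42.1 against 0, 3.28, 1.96, 4.27 and 3.21 CPM. Ccr6, the receptor for CCL20, was at 111, 125, 109, 172 and 142 against 21.3, 16.4, 5.88, 57.7 and 8.03 CPM. The highest CD44lo library of each of these receptors lay below the lowest CD44hi library. Cxcr6 was at 17.3 to 90.3 against 0.367 to 3.28 CPM and Ccr2 at 1.76 to 41.5 against 0 to 1.204 CPM. Ccr3, Ccrl2, Cxcr4 and Cxcr5 were also among those called. The calls of Ccr3 and Cxcr4 were lost in the fit of the 10 libraries, and leaving out mouse 5 left 8 of the 11. Ccr3, at 0 to 10.1 CPM in CD44hi, was also lost without mouse 1 or 3.

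Among 22 integrins and adhesion genes, 9 were called higher and 1 lower, beside 4.33% and 0.638% of all tested genes. The 9 include Cd44, whose protein defined the sort, so that its difference is no finding. Itgae, the alpha chain of CD103, was at 92.2, 81.7, 139, 118 and 154 CPM in CD44hi and at 27.1, 27.9, 24.7, 6.41 and 14.8 CPM in CD44lo. Itgb3, a beta chain that can pair with Itgav, was the lower gene, at 14.8, 32.9, 23.8, 23.2 and 9.72 against 53.9, 47.9, 103, 118 and 85.9 CPM. Itgav itself was called higher, as were the beta chains Itgb1 and Itgb8 and the genes Itga1, Icam1 and Alcam. Leaving out mouse 4 left 5 higher and 1 lower, without Itga1, Itgae, Itgav and Icam1. Itga1 was also lost without mouse 2, 3 or 5, Itgav without mouse 3 and Icam1 without mouse 1, 2 or 5. The fit of the 10 libraries gave 8 higher and 4 lower, with Itga6 and Pecam1 among the lower genes added.

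Calcium-binding and membrane-binding proteins formed another higher group, with 7 of 15 S100, annexin and galectin genes called higher, beside 4.33% of all tested genes. None of the 15 was called lower (11 higher and 0 lower at an unadjusted p under 0.05, and 8 higher and 0 lower with DESeq2). S100a6 was at 97.7, 130.5, 102, 82.8 and 120.2 CPM in CD44hi and at 8.07, 11.5, 4.31, 2.67 and 8.43 CPM in CD44lo. Anxa2, an annexin that binds S100a10, was at 252, 234, 275, 214 and 211 against 41.8, 40.6, 36.5, 20.8 and 87.5 CPM. S100a4 was lower in level but also separate, at 11.8 to 25.9 against 0 to 4.04 CPM. S100a11, Anxa4, Lgals1 and Lgals3 were the other called members.

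In the RefSeq promoter windows (GRCm38.p6, 250 bases before to 50 after the start, the first window listed for each gene), 5 motifs were searched for on both strands. A window was found for 10360 tested genes, 425 of them called higher and 72 called lower. The AP-1 site TGANTCA, which BATF and other bZIP factors bind, was in 8.47% of the windows of higher genes, 4.17% of those of lower genes and 4.96% of all. The E-box CAGNTG was in 51.8%, 38.9% and 44.4%, the KLF core GGGTG in 68.9%, 63.9% and 63.0%, the TCF/LEF site CTTTGA in 11.5%, 11.1% and 11.9% and the forkhead site TGTTTAC in 2.59%, 2.78% and 2.52%. These shares are descriptions, and no difference between them was tested. The 250 bases before the start are shown for 4 higher genes, Anxa2, Fgl2, Ccr4 and Prdm1, picked because their windows hold the AP-1 letters, which are in capitals. They read 5′ to 3′ on the strand of the gene.
Anxa2, chr9:69453433-69453682, + strand: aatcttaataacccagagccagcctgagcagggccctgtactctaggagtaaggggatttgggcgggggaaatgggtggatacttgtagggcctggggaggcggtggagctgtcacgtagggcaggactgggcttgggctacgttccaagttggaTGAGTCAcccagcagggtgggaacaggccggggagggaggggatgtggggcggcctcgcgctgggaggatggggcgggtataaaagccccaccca
Fgl2, chr5:21372423-21372672, + strand: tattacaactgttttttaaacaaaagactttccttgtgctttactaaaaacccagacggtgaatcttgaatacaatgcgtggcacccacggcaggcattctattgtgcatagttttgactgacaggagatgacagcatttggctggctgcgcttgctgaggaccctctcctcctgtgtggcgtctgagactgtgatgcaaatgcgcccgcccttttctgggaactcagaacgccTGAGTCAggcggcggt
Ccr4, chr9:114496545-114496794, - strand: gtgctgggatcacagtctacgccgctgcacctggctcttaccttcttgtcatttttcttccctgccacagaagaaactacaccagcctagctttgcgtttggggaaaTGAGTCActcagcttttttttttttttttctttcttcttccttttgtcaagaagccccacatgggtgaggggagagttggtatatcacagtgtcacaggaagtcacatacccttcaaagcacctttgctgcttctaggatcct
Prdm1, chr10:44458749-44458998, - strand: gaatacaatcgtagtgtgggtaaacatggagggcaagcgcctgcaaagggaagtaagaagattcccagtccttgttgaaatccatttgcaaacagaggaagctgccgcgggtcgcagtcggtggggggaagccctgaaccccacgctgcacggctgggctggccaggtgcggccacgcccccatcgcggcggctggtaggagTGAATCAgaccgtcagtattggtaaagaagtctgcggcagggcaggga
The site ended 89 bases before the start in Anxa2, 10 in Fgl2, 137 in Ccr4 and 42 in Prdm1. Only the site of Anxa2 overlapped a match of another of the motifs.

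Cell cycle transcripts were among the groups with the most calls. Of 40 cell cycle genes 19 were called, all higher, beside 4.33% of all tested genes, 23 did not overlap, beside 6.01%, and 39 had a positive log2 fold change, with a median of 2.78. Mki67, a marker of cycling cells, was at 98.1, 29.5, 56.9, 80.3 and 33.8 CPM in CD44hi and at 0.367, 0, 0, 0 and 2.01 CPM in CD44lo. Top2a, the topoisomerase of dividing cells, was at 131, 39.4, 92.6, 84.5 and 116 against 7.71, 2.87, 15.3, 1.603 and 2.81 CPM. Tyms, thymidylate synthase, was at 98.5, 39.4, 58.2, 79.03 and 88.9 against 8.07, 20.1, 15.3, 15.5 and 21.3 CPM. The levels in CD44hi varied between mice, with mouse 2 lowest in each, and every one stood above all CD44lo libraries. Birc5 (survivin) and Aurkb, a mitotic kinase, had 0 counts in all CD44lo libraries and were at least 179.5-fold and 151-fold higher. The number called was 13 without mouse 1 or mouse 4, 26 in the fit of the 10 libraries and 28 with voom. Of the D cyclins and CDK inhibitors, Cdkn2c (p18) was higher and Cdkn2d (p19) lower, at 107 to 142 against 202 to 216 CPM.

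Among 16 genes of the BCL2 family, Bcl2 was at 299, 418, 395, 484 and 366 CPM in CD44hi and at 693, 813, 711, 858 and 753 CPM in CD44lo, 1.95-fold lower without overlap. Its adjusted p was 0.0212 (edgeR), and the call was lost without mouse 1, 2, 3 or 5. Bcl2a1d was called higher, at 15.1 to 20.3 against 1.96 to 5.504 CPM, but it has near-identical copies among which reads could be split. Pmaip1 (NOXA), a cell death protein, was called higher with overlapping groups, and its call was lost without mouse 1, 2 or 4.

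Genes that follow a fresh signal of the T cell receptor were divided. Of 30, 5 were called, all higher, beside 4.33% of all tested genes, namely Irf4, Tnfrsf9, Nr4a2, Nr4a3 and Dusp1. Nr4a2 was at 21.1, 10.3, 2.65, 28.7 and 0.7200 CPM in CD44hi against 0, 2.05, 0.784, 0 and 0.401 CPM in CD44lo, which overlap. Without mouse 3 only 2 of the 5 stayed called, and 3 without mouse 1, without mouse 4 or in the fit of the 10 libraries. The calls of Nr4a2 and Nr4a3 were lost with voom and in the fit of the 10 libraries with mouse as a block. The call of Dusp1 was lost without mouse 1, 3, 4 or 5, that of Nr4a3 without mouse 1 or 3 and that of Tnfrsf9 without mouse 3 or 4. Fos and Cd69, chosen after their values were seen and not called in the fit of all groups, differed more by mouse than by population. Within mice the direction was steady, with Fos lower in CD44hi in every mouse and Cd69 in every mouse but mouse 4. Fos was at 32.95, 408, 65.7, 279.8 and 38.9 CPM in the CD44hi libraries of mice 1 to 5 and at 55.8, 478, 99.2, 367 and 160.5 CPM in their CD44lo libraries, with mouse 2 and mouse 4 highest in both. Cd69, an early activation antigen, was at 209.9, 454, 315, 556 and 389.5 and 224, 650.3, 368, 551 and 424 CPM, with mouse 1 lowest in both populations.

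Components of the receptor's signalling chain moved in both directions. Of 25, 4 were higher, Nfatc1, Ptpn22, Zap70 and Ubash3b, and 1 was lower, beside 4.33% and 0.638% of all tested genes. Nfatc1, a factor that moves to the nucleus on calcium signals, was at 485, 569, 604, 432 and 459 CPM in CD44hi and at 258, 187, 207, 159 and 212 CPM in CD44lo. Ptpn22, a phosphatase that restrains the receptor, was 1.65-fold higher. Leaving out mouse 3 left 2 higher and 1 lower, without Zap70 and Ubash3b, and the call of Zap70 was also lost without mouse 2 or 5.

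The list named for follicular regulatory T cells had the largest share of calls of the 24 lists, 12 of 15, all higher, beside 4.33% of all tested genes. The lists were chosen with earlier results of these data known, so this rank is a description only. Some members, among them Maf, Icos and Il1r2, also stand in other lists. Il21 also stands among the helper cytokine genes given above, so its call is not particular to follicular regulatory T cells. Cxcr5 (chr9:44511787-44561877), the receptor that leads cells into B cell follicles, was at 199.6, 179, 175, 190.2 and 206 CPM in CD44hi and at 57.6, 29.5, 38.4, 37.4 and 64.6 CPM in CD44lo. Sostdc1, a secreted inhibitor of BMP and WNT signals, was at 31.5, 64.2, 28.7, 27.5 and 12.2 CPM and had 0 counts in CD44lo, at least 129-fold higher. Tox2 was at 119, 147, 89.1, 64.7 and 90.7 against 0, 0.4098, 0, 0 and 1.605 CPM. Every mouse showed these gains. Angptl2 was at 41.00 to 171 CPM against 2 counts in 1 CD44lo library, a ratio of 620 with an exact 95% counting interval from 171 to 5125, and Il21 was at 0 to 17.4 against 0. The factor Bcl6 was at 19.2, 11.1, 20.7, 6.76 and 16.2 against 0, 4.92, 3.53, 1.603 and 8.03 CPM and was not called (adjusted p = 0.0899, edgeR). Leaving out mouse 3 or mouse 4 left 9 of the 12, the call of Cxcr5 was lost without mouse 3, 4 or 5, and that of Il21 without any 1 mouse.

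Set beside other groups of the study, these genes differed in their levels. Cxcr5 was at 42.9, 65.3, 20.2, 29.9 and 19.4 CPM in the ST2+ CD44hi libraries of the same spleens, which overlap the CD44lo libraries, and the log2 fold change of ST2+ against ST2- CD44hi was -2.42 ± 0.59 (SE, adjusted p = 0.0436, edgeR). Sostdc1 was at 0.396 CPM in 1 ST2+ library and at 0 in the other 4, with an adjusted p of 0.0872 (edgeR) that missed the threshold. Il21 had counts in 1 of the 5 ST2+ libraries. By contrast Pdcd1 was at 431 to 637 CPM, Tox2 at 43.7 to 74.6 CPM, Il1r2 at 83.3 to 179 CPM and Maf at 182 to 297 CPM in ST2+, none of which was called against ST2- CD44hi. Angptl2 was at 19.8 to 125 CPM in spleen ST2+, and Bcl6 at 5.87 to 12.8 CPM. In the lungs Sostdc1 had 0 counts in both ST2- populations. Cxcr5 was at 55.7 to 100.2 CPM in lung CD44hi and 30.7 to 114 CPM in lung CD44lo. Bcl6 was at 0 to 12.6 CPM in lung CD44hi and 9.34 to 48.55 CPM in lung CD44lo, where its median was the highest of the 5 groups. None of the 15 genes was called for a difference between the spleen and the lung contrast (edgeR), and that of Cxcr5 was 1.67 ± 0.80 (SE).

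**Figure D3:**
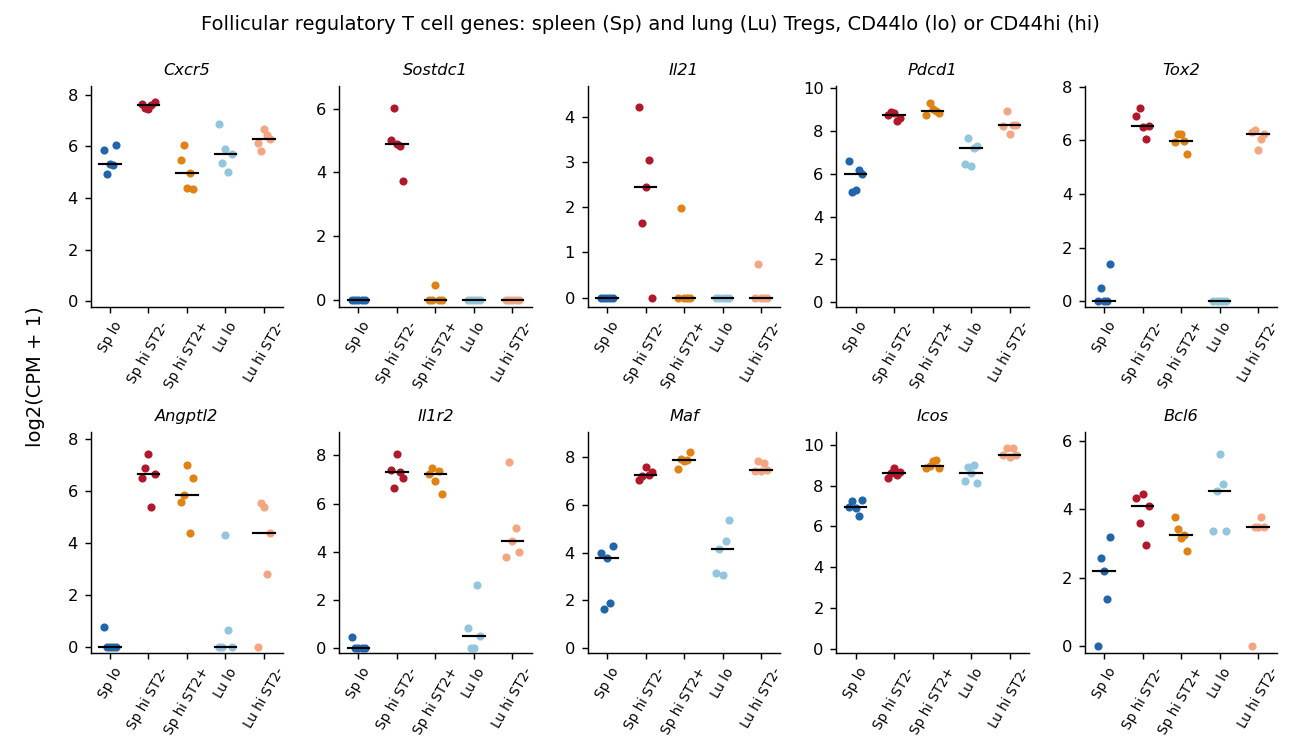
Levels of 10 follicular regulatory T cell genes as log2(CPM + 1) in 5 groups of 5 libraries each, with 1 point per library and a bar at the median. Cxcr5, Sostdc1 and Il21 are highest in spleen ST2- CD44hi Tregs, whereas Pdcd1, Tox2, Maf and Icos are also high in spleen ST2+ and lung CD44hi Tregs. Angptl2 is also high in spleen ST2+ Tregs, and Bcl6 has its highest median in lung CD44lo Tregs.

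In lists with few or no calls, counts are read against the 4.97% of all tested genes that were called, a share that leaves less than 1 call for a list of 8 or 15 genes. Of 39 interferon-stimulated genes edgeR called 0, with 5 at an unadjusted p under 0.05, and DESeq2 called 0 and voom 7 (2 higher and 5 lower), and edgeR with mouse as a block called 1 higher. Igtp, an interferon-induced GTPase, was at 404 to 480.5 against 512 to 626 CPM without overlap, a log2 fold change of -0.34, and Irf1 was at 516 to 552 and 534 to 609 CPM. The 22 heat shock and unfolded protein response genes had 0 calls with edgeR, DESeq2 and voom and 2 at an unadjusted p under 0.05, with Hsp90ab1 at 665 to 822 and 653 to 872 CPM and Pdia3 at 545 to 601 and 509 to 589.8 CPM. The 8 GIMAP GTPases of lymphocyte survival also had 0 calls with the 3 tools and 0 at an unadjusted p under 0.05, with Gimap3 at 955 to 1089 and 1052 to 1173 CPM and Gimap4 at 704 to 785 and 746 to 932 CPM. The 15 SOCS and STAT genes, which carry and restrain cytokine signals, had 0 calls with edgeR and DESeq2, 1 with voom and 0 at an unadjusted p under 0.05, with Stat3 at 392 to 542 and 456 to 538 CPM and Stat6 at 334 to 411 and 335 to 459.8 CPM.

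Of 22 genes of sterol and fatty acid synthesis edgeR called 0, although 6 were lower at an unadjusted p under 0.05 and the list's median log2 fold change was -0.52. DESeq2 called 0, voom 6 lower and the fit of the 10 libraries 4 lower, Mvd and Srebf2 among them, and edgeR with mouse as a block called 1 lower. Srebf2, the sterol-sensing factor, was at 198, 167, 155, 144 and 132 CPM in CD44hi and at 239.2, 237, 302, 244 and 190.2 CPM in CD44lo, which overlap, and Acly was at 201 to 356 and 219.6 to 367 CPM. In glycolysis, Tpi1, triosephosphate isomerase, was 1.76-fold higher and Pdk1, which turns pyruvate away from mitochondria, 1.95-fold lower, and the other 18 of 20 genes were not called. Both calls were lost without mouse 3, and that of Pdk1 also without mouse 1. Of 27 cytokine receptors 4 were higher, Il1r2, Il9r, Il18rap and Il18r1, and Ifngr2 was lower. Il18rap, a chain of the IL-18 receptor, was at 30.96 to 68.3 against 0 to 9.83 CPM. Il9r was at 3.85 to 15.8 CPM with 0 counts in CD44lo, at least 35.9-fold higher. Of 8 RGS genes, which end G-protein signals, Rgs16 was called higher, at 11.9 to 54.3 against 0.401 to 10.7 CPM.

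**Figure D4:**
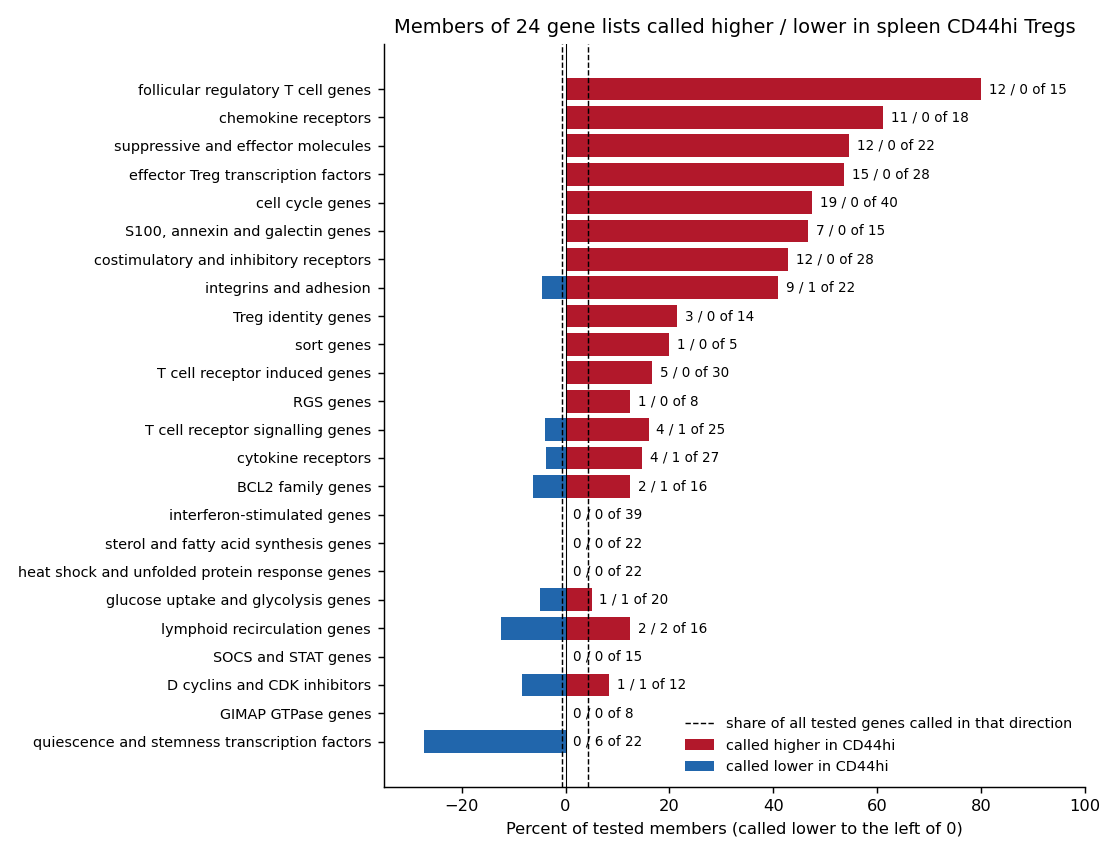
Percent of the tested members of 24 gene lists called higher (right of 0) or lower (left of 0) in spleen CD44hi Tregs, with the counts higher / lower of tested beside each bar and dashed lines at the shares of all tested genes, 4.33% and 0.638%. Follicular regulatory T cell genes (12 of 15) and chemokine receptors (11 of 18) reach furthest to the right and quiescence factors (6 of 22) furthest to the left.

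The same contrast in the lungs, from other libraries of the same mice, called 733 genes (5.56%), 639 higher and 94 lower. Of the 571 genes higher in spleen 350 (61.3%) were called higher in lungs as well, which is 54.8% of the lung calls. Of the 84 lower genes 21 (25.0%) were called lower in lungs, 22.3% of the lung calls. No gene was called in opposite directions. Of the genes called in spleen, 550 of the 571 higher (96.3%) and 83 of the 84 lower (98.8%) had the same sign in lungs. For the higher genes the median log2 fold change was 3.58 in spleen and 2.28 in lungs. For the lower genes it was -1.02 in spleen and -0.57 in lungs. These genes were picked by their spleen values. S1pr1, for example, had -0.98 in spleen and -0.10 in lungs, Gpr146 -2.36 and -0.80, and Satb1 -2.21 and -1.70. The difference between organs was not called for these 3 genes (adjusted p = 0.25, 0.0808 and 1, edgeR).

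A test of the difference between the contrasts of spleen and lungs called 18 genes (0.137%), with 831 at an unadjusted p under 0.05. Of these, 6 had a larger log2 fold change in spleen and 12 a smaller one. Ier5l, an immediate early response gene, was at 31.5, 51.8, 11.9, 21.1 and 10.4 CPM in spleen CD44hi against 1 count in CD44lo, and at 37.3, 71.98, 25.6, 67.98 and 40.9 against 16.4, 3.15, 6.25, 15.9 and 39.6 CPM in lungs. Sccpdh was at 47.8 to 96.3 against 0 to 1.47 CPM in spleen and 12.6 to 36.8 against 0 to 34.6 CPM in lungs. In both genes lung CD44lo libraries (all 5 for Ier5l and 4 of 5 for Sccpdh) held more of the transcript than any spleen CD44lo library. Tigit followed this pattern in part, at 8.98 to 21.6 CPM in lung CD44lo, with a difference of log2 fold changes of 2.89 ± 0.58 (SE, adjusted p = 0.0105, edgeR). Cd83 was at 126 to 292 CPM in lung CD44lo and 183 to 359 CPM in lung CD44hi, and its difference was 2.21 ± 0.47 (SE).

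Of the 12 genes with a smaller log2 fold change in spleen, Tmem176a, a membrane protein, was at 3.702, 12.4, 2.65, 9.72 and 5.76 CPM in spleen CD44hi and at 16.5, 9.83, 9.02, 2.14 and 3.21 CPM in spleen CD44lo, and rose from 0 to 4.896 to 36.1 to 79.99 CPM in lungs. Sept11, a septin of the cytoskeleton, was at 73.96 to 117 and 86.01 to 117 CPM in spleen and 1.36 higher on the log2 scale in lung CD44hi. Glrx, glutaredoxin, was called higher in both organs, with log2 fold changes of 1.56 in spleen and 2.996 in lungs. Itgb3 was lower in spleen CD44hi, as given above, and at 67.6 to 105 and 67.7 to 148 CPM in lung CD44hi and CD44lo. The call of Ier5l was lost without mouse 1, that of Tmem176a without mouse 1, 2 or 3 and those of Tigit, Sccpdh and Glrx without any of mice 1 to 4. Of the 18 calls, 1 was kept without mouse 1, 2 without mouse 2, 4 without mouse 3, 3 without mouse 4 and 9 without mouse 5.

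**Figure D5:**
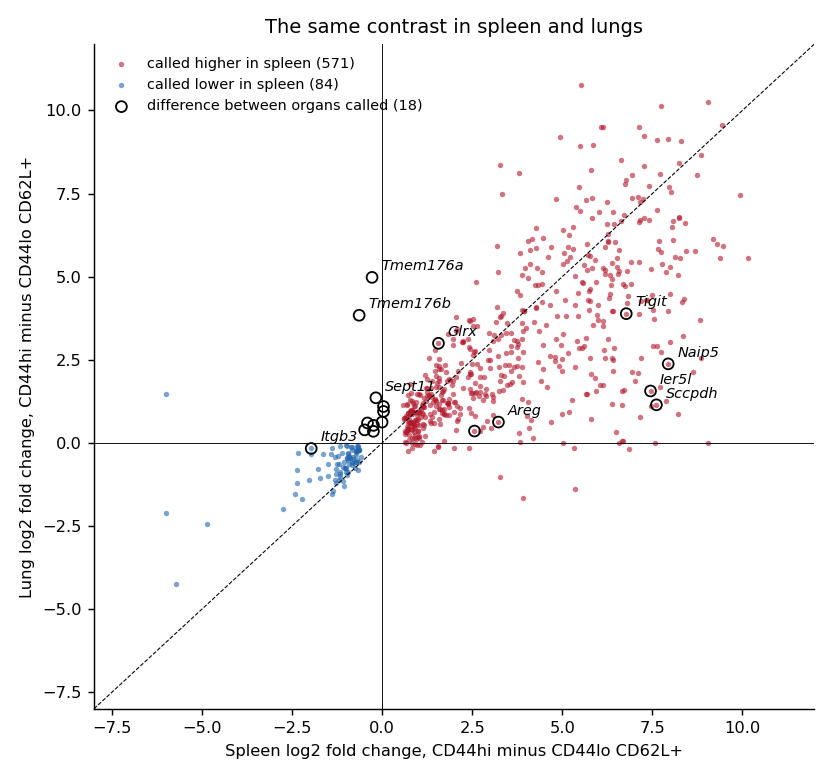
The log2 fold changes of CD44hi against CD44lo CD62L+ Tregs in spleen (x axis) and lungs (y axis) for the 571 genes called higher and the 84 called lower in spleen, with a dashed line of equal change. Rings mark the 18 genes called for a difference between the organs, of which Ier5l, Sccpdh, Naip5 and Tigit lie below the line and Tmem176a and Tmem176b above it.

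ST2+ CD44hi Tregs of the same spleens differed from ST2- CD44hi Tregs in 46 genes (0.349%), 45 higher and 1 lower in ST2+. That contrast shares the ST2- CD44hi libraries with the one above, so values and counts are set side by side only. Klrg1, described above, averaged 0.457 ± 0.667 CPM in CD44lo, 50.5 ± 43.3 CPM in ST2- CD44hi and 482 ± 60.1 CPM in ST2+ CD44hi (mean ± SD, n = 5 each). For Ccr4 the means were 2.54 ± 1.64, 35.2 ± 10.2 and 109 ± 30.7 CPM, for Fgl2 2.18 ± 1.52, 41.7 ± 18.1 and 142 ± 12.98 CPM and for Id2 44.2 ± 21.5, 151 ± 27.8 and 356 ± 43.7 CPM. Not all genes followed this order. Of the 571 genes called higher in CD44hi, 323 had a higher mean in ST2+ than in ST2- CD44hi, and 15 were called higher in ST2+. Irf4 averaged 81.7 ± 34.0 CPM in ST2- CD44hi and 38.4 ± 18.2 CPM in ST2+, and Dusp14 43.2 ± 10.6 and 23.5 ± 4.85 CPM, neither called. Of the 84 lower genes, 51 had a higher mean in ST2+ than in ST2- CD44hi. Satb1 was at 159 to 249 CPM in ST2+, Lef1 at 162 to 267 CPM and S1pr1 at 303 to 449.8 CPM, each overlapping ST2- CD44hi and below every CD44lo library. The single lower gene was Cxcr5.

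Effector libraries held transcripts of more genes. Protein-coding genes with at least 1 count numbered 11325 ± 235 in CD44hi and 10753 ± 158 in CD44lo (mean ± SD, n = 5 each), higher by 573 in CD44hi and in 5 of 5 mice (two-sided exact permutation test, p = 0.0159). After each library was thinned to 1838429 counts the difference was 561 genes (exact permutation test, p = 0.00794, the smallest value 5 against 5 libraries allow when mice are not paired), and at a minimum of 5 counts it was 533 (p = 0.00794 by the same exact permutation test). The exact permutation p rose to 0.0571 without mouse 2, 4 or 5, where a difference of 531.5 to 593 genes remained. With the libraries paired by mouse, an exact permutation test by sign flips gave p = 0.0625 for the 573 genes, the smallest value that 5 pairs allow.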

How the data were processed

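The authors trimmed 58-base single reads of SMART-Seq v4 and NexteraXT libraries, aligned them with STAR to GRCm38 and counted reads per gene with HTSeq 0.4.1, and the counts they deposited were used without change. The sources used here do not give the counting mode or strand setting. Of 70 libraries 67 with at least 1000000 counts were kept. Genes were named by GENCODE M21, and 13173 protein-coding genes that reached 1 CPM in 10% or more of the libraries were tested with edgeR 4.0.16 in R 4.3.3 (TMM, quasi-likelihood test, 1 term for each of 14 groups, no term for mouse, two-sided). A call needed a 1.5-fold change and an adjusted p of at most 0.05. SE is the log2 fold change divided by the root of its F statistic. Scripts were tested on simulated data. Members, lists and rules were chosen with earlier results of these data known.

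Named genes were the 5 sort genes, for each direction the 14 genes of smallest adjusted p among called genes whose groups did not overlap, up to 3 called members per list (otherwise the 2 with the highest level), and up to 3 genes per direction for the difference between organs. Some named genes are not reported here. Other members of the lists, and genes so marked, were chosen after their values were seen. Both groups came from the same animals. Deviations of the 2 libraries of a mouse from their group means correlated with r = 0.000215 to 0.0815 (13173 genes, mean 0.0463, against -0.0114 between different mice), so fits with mouse as a replicate block were set beside the others. Alternatives were DESeq2 1.42.0, limma 3.58.1 voom with quality weights, median-of-ratios factors, other gene filters, a fit of the libraries compared, glmTreat and leaving out each mouse. Each mouse gave 1 library per group, and libraries of a group differed in their counts. A gene at 1 CPM has about 2 counts in a library, and counting intervals cover counting error only.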

Additional observations from a re-analysis of the deposited data

Results flagged for a closer look

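Among the named genes, 162 groups of 5 libraries were examined for a library that stood apart (Dixon's ratio above 0.71), and 11 had one, where chance alone gives about 5%. In CD44lo the highest library stood apart for Cxcr3 (mouse 3, 6.66 CPM), Ttc39c (mouse 4, 3.21 CPM), S100a4 (mouse 1, 4.04 CPM), Il1r2 (mouse 1, 0.37 CPM), Sccpdh (mouse 1, 1.47 CPM), Ier5l (mouse 5, 0.40 CPM) and Mki67 (mouse 5, 2.01 CPM), genes at or near 0 in the other CD44lo libraries. S1pr1 and Tnfrsf9 were highest in the CD44lo library of mouse 5, at 813.96 and 327.11 CPM, where the next library was at 738.3 and 180.3 CPM. In CD44hi, Ikzf2 was lowest in mouse 1 (666.41 CPM, next 954.86 CPM) and Cdkn2c in mouse 4 (8.45 CPM, next 37.65 CPM).

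The effector-central contrast differed between spleen and lungs by an interaction test (edgeR, adjusted p of at most 0.05 and at least 1.5-fold) for 8 named genes. The log2 fold change was larger in spleen by 6.47 for Sccpdh, 5.89 for Ier5l, 2.89 for Tigit and 2.21 for Cd83. The signed difference was -5.26 for Tmem176a, -1.80 for Itgb3, -1.53 for Sept11 and -1.43 for Glrx. The call of Ier5l was lost without mouse 1, that of Tmem176a without mouse 1, 2 or 3, those of Tigit, Sccpdh and Glrx without mouse 1, 2, 3 or 4, that of Cd83 without mouse 2, 3, 4 or 5, that of Itgb3 without mouse 1, 3, 4 or 5 and that of Sept11 without mouse 1, 2 or 4.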

How the results depend on the processing

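Over 14 alternatives, 81 named genes and the counts of 24 lists gave 1470 values. Of these 1386 kept their direction and call (a count within 1.5 times), 31 kept the direction without the call, 8 gained a call, 41 counts moved further and 4 values changed sign. The total of 655 calls became 1528 (1135 higher and 393 lower) with voom and quality weights, 1019 (764 and 255) in the fit of the 10 libraries, and 399 (375 and 24) with a 1.5-fold minimum inside the test. The share of higher calls was 74.3% with voom and 75.0% in the fit of the 10 libraries, against 87.2%. With mouse as a replicate block the calls were 613 higher and 103 lower, which kept 555 of the 571 and 83 of the 84, and in the fit of the 10 libraries with the replicate block 992 (725 and 267). Leaving out 1 mouse gave 440 to 561 calls, 380 to 475 higher and 60 to 86 lower. For the difference between organs, the 18 calls (6 and 12) became 78 (35 and 43) with DESeq2, 110 (47 and 63) with voom, 45 (20 and 25) with only the libraries compared, 77 (31 and 46) with these and the replicate block, 26 (7 and 19) with the replicate block alone, 13 (6 and 7) with median-of-ratios factors and 2 (1 and 1) with the 1.5-fold minimum, and 2 to 12 (1 to 4 and 1 to 8) when 1 mouse was left out. The cause of these changes was not tested. Values near 0 changed sign for Hsp90ab1 (0.01 on the log2 scale, -0.01007 without mouse 1, with a range from -0.06017 to 0.06027 over the mice left out) and for Tmem176a (-0.28, 0.00378 with voom and from -0.657 to 0.2968 over the mice left out, positive without mouse 1). The difference in detected genes ran from 531.5 to 609.75 when 1 mouse was left out, and was 572.8 with an exact p of 0.0625 by sign flips within mice (replicate block), an alternative chosen after seeing the data. Genes below about 1 CPM rest on few counts.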
